A study of Mus musculus with 26 samples.

Results

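Cells take up glucose through transporters such as GLUT1, encoded by Slc2a1, and break it down to pyruvate and lactate. The expression of 10 genes of this route was examined in mouse embryonic tissues and fibroblasts: the transporter gene Slc2a1, the hexokinase genes Hk1 and Hk2, the phosphofructokinase genes Pfkl, Pfkm and Pfkp, the pyruvate kinase genes Pkm and Pklr, and the lactate dehydrogenase genes Ldha and Ldhb. They were taken by symbol from an expression table of 52454 gene symbols, in which each had 1 row. Hexokinase traps glucose in the cell as its phosphate, phosphofructokinase commits it to glycolysis, pyruvate kinase makes pyruvate and ATP, and lactate dehydrogenase interconverts pyruvate and lactate. Each of these steps can be run by isozymes from separate genes, and tissues differ in which of them they use: liver is known for Pfkl and Pklr, muscle for Pfkm, Hk2 and Ldha, heart for Ldhb, and red blood cells for Hk1, Pklr and Slc2a1. The question asked was which isozymes heart, liver and the fibroblasts used, and whether this differed with the genotype label or treatment.

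RNA-seq gave 10 libraries, 1 for each condition. Heart and liver came from male C57BL6 embryos at E14.5, labelled WT or Dnmt3a KO. Passage 1 mouse embryonic fibroblasts (MEFs) came from male C57BL6 E14.5 embryos with the same labels, and were cultured with the solvent DMSO or with GSK126, an inhibitor of the histone methyltransferase EZH2. The 2i-MEFs were passage 1 fibroblasts from E14.5 chimeras, grown from female F1 ES cells (129X1/SvJ and MSM/Ms) that were Dnmt3a KO or Dnmt3b KO. The Dnmt3a KO mice carried a germline null allele that was bred through heterozygous parents. The ES cells were clones kept in the 2i/L medium, in which Dnmt3a or Dnmt3b had been disrupted with CRISPR. These cells were injected into ICR blastocysts, and the chimeras' fibroblasts were drug-selected and sorted by GFP to remove host cells. The WT 2i-MEFs were not analysed here. The labels give no treatment for the 2i-MEFs. Sex, strain, cell derivation, sorting, genotype and treatment therefore differ together between 2i-MEFs and MEFs and cannot be told apart.

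Estimated depth ranged from 9151285 to 26161644 mapped reads. Levels are in FPKM, which counts fragments by the kilobase of transcript relative to all mapped fragments of a library, and 1 FPKM on a transcript of 2000 bases corresponded to 16.5 reads in the shallowest and 47.2 in the deepest library. In 3 libraries the level of Dnmt3a went against the label. It was at 125 FPKM in the heart labelled Dnmt3a KO against 55.0 in WT heart, and at 85.7 and 84.5 FPKM in the MEFs labelled Dnmt3a KO against 26.1 and 19.3 in WT MEFs. It was lower in the liver labelled Dnmt3a KO (12.7 against 53.5 FPKM in WT liver) and in Dnmt3a KO 2i-MEFs (4.21 against 23.9 FPKM in Dnmt3b KO). A gene-level value cannot show whether the transcripts lack the deleted part, so genotypes below are those of the labels. Tissue markers matched the sources: all 10 cardiomyocyte markers reached 1 FPKM in both hearts, all 10 hepatocyte markers in both livers and all 10 fibroblast markers in the 6 fibroblast libraries. Other cells were present too. The 11 erythroid markers in the table summed to between 123894 and 165446 FPKM in liver, between 53986.5 and 61097.9 in heart, and at most 4.83 in fibroblasts. The 6 macrophage markers summed to between 990 and 1387 FPKM in MEFs, and to 21.9 (Dnmt3a KO) and 14.51 (Dnmt3b KO) in 2i-MEFs. In such bulk samples, fewer cells of a type and less RNA per cell cannot be told apart.

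Values below are given in the order WT and then Dnmt3a KO for heart and for liver; WT with DMSO, WT with GSK126, Dnmt3a KO with DMSO and Dnmt3a KO with GSK126 for MEFs; and Dnmt3a KO and then Dnmt3b KO for 2i-MEFs. Sources were compared with limma on log2(FPKM + 1) over all 15643 genes with at least 1 FPKM in at least 2 libraries. A gene was called when its Benjamini-Hochberg adjusted p was under 0.05 and its fold change was at least 2. The libraries of a source (2 for heart, 2 for liver, 4 for MEFs, 2 for 2i-MEFs) differ in genotype label or treatment, so these p-values measure the spread between such libraries, and no condition has a second library.

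The start regions of Pklr, Ldha and Ldhb are shown first, because Pklr has separate starts for the cell types of fetal liver and because Ldha and Ldhb moved unequally between heart and liver. Pklr makes a red blood cell form from an upstream start and a liver form from a start inside the gene. The table gives 1 value for the whole gene, so the 2 forms cannot be told apart, and the same holds for the M1 and M2 forms of Pkm, which differ by an exon. Each sequence runs from 250 bases before to 50 bases after an annotated start (RefSeq, GRCm38.p6). The first Pklr region is chr3:89135892-89136191 and the second is chr3:89136373-89136672, both on the plus strand, with matches to the erythroid motif WGATAR (the letters GATA with A or T before and A or G after them, on either strand) and to the CACC box (CCACCC, on either strand) in capitals.
Pklr, upstream start: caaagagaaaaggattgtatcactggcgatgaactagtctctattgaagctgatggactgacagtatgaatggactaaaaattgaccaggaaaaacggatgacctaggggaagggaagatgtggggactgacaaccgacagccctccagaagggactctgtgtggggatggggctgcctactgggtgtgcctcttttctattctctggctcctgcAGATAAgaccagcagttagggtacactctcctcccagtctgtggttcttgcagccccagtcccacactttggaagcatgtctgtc
Pklr, downstream start: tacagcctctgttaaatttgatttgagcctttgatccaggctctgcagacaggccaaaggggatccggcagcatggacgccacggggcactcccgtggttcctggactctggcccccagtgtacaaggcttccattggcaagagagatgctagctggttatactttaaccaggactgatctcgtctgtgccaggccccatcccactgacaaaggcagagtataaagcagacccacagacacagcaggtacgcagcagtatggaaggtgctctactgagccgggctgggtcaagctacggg
The upstream region held 1 WGATAR match, at position -35 from the start, and no CACC box. The downstream region held neither, and had 1 TATA match (TATAAA, on either strand). Of 32851 such regions in the RefSeq annotation, 29.8% held a WGATAR match, 31.5% a CACC box and 13.6% a TATA match.

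The Ldha region is chr7:46845554-46845853 on the plus strand and the Ldhb region is chr6:142507908-142508207 on the minus strand (Ldha has 2 annotated starts, of which the upstream one is shown). Capitals mark the core motif of the hypoxia-inducible factors (ACGTG or GCGTG on either strand), which are known to act on glycolytic genes.
Ldha: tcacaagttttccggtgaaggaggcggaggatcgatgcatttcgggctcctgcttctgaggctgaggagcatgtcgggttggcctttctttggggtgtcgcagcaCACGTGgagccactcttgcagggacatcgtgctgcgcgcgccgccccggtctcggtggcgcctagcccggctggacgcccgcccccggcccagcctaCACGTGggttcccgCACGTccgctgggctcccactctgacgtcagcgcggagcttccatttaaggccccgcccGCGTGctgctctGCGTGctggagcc
Ldhb: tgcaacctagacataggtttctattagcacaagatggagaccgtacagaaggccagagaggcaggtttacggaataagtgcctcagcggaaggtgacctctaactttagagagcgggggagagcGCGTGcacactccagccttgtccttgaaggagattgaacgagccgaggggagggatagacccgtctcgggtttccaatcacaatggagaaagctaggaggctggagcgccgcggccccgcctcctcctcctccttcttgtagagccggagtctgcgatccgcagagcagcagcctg
The Ldha region held 7 matches, counting each of its 2 E-boxes (CACGTG) once per strand, and the Ldhb region held 1. At least 1 match was present in 12 of the 17 annotated start regions of the 10 genes and in 43.8% of all regions, whereas an E-box was present in 7.15% of all regions. These matches describe the letters only.

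Heart had the highest level of 8 of the 10 genes, liver of Pklr and Slc2a1. The share of all genes that were highest in heart is not given here. In the comparison of heart against liver, 6 genes were called higher in heart (Hk2, Pfkm, Pfkp, Pkm, Ldha and Ldhb), beside 18.8% of all genes tested, and Pklr was called lower, beside 17.1%. In MEFs, all 10 genes were called lower than in heart, beside 14.51% of all genes, and none was called higher, beside 15.7%. The call of Pklr there rested on 1 library, WT heart, and was also lost under 3 other settings of the fit. Compared with liver, MEFs had 3 genes called higher (Pfkp, Pkm and Ldhb), beside 22.5% of all genes, and 5 called lower (Hk1, Pfkl, Pklr, Ldha and Slc2a1), beside 20.4%. Between 2i-MEFs and MEFs, limma called none of the 10 genes in either direction, beside 3.9% of all genes called higher and 5.41% called lower. In this comparison 4 of the 10 (Hk2, Pfkl, Pfkp and Ldhb) had p under 0.05, both unadjusted (beside 37.6% of all genes) and adjusted (beside 23.6%), with a fold under 2. The median log2 fold change of the 10 genes was 1.14 for heart against liver, -2.26 for MEFs against heart, -0.90 for MEFs against liver and -0.08 for 2i-MEFs against MEFs, beside -0.01, 0.02, 0.02 and 0.003 over all genes tested. With Pklr, which fibroblasts list at 0, set to the bound that 3 reads allow, the medians of the comparisons of MEFs with heart and with liver kept these values, and without it the median for 2i-MEFs against MEFs was -0.15. These comparisons share libraries, and their values are therefore not independent.

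**Figure D1:**
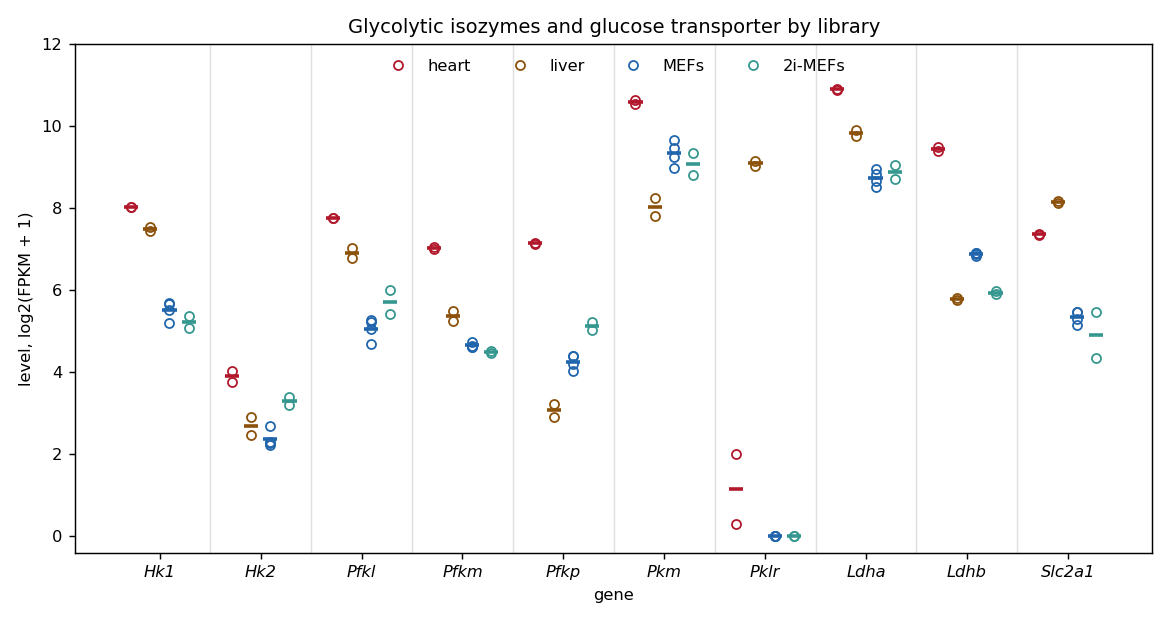
Level of each gene in each library on the log2(FPKM + 1) scale. Each circle is 1 library and each bar is the mean of the libraries of a source. The hearts lie above the other sources for 8 genes, the livers for Pklr and Slc2a1, and the 6 fibroblast libraries list Pklr at 0.

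**Figure D2:**
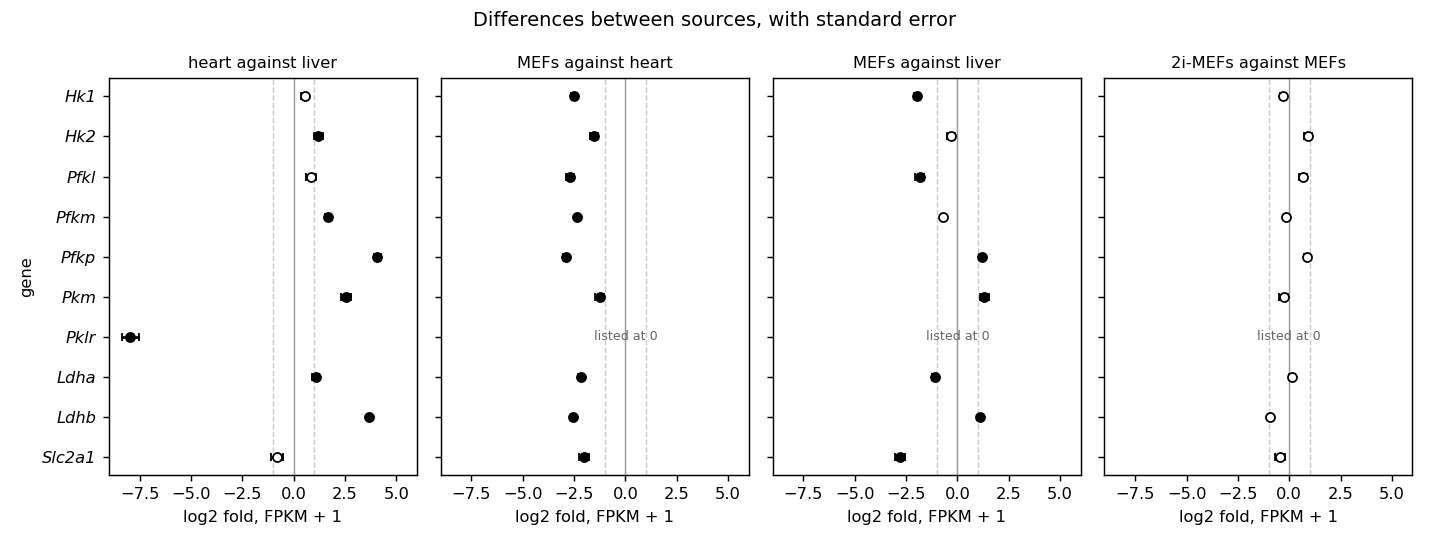
Fitted log2 fold changes of FPKM + 1 (points) with their standard errors (bars) for the 4 comparisons of sources, the first source named minus the second. Filled points were called, open points were not, dashed lines mark a 2-fold change, and a gene listed at 0 in a source is not plotted. The filled points lie on both sides of 0 for heart against liver and MEFs against liver, on the left for MEFs against heart, and none is filled for 2i-MEFs against MEFs.

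Slc2a1 (ENSMUSG00000028645.11, chr4:119108711-119137983, plus strand, mm10) encodes the basal glucose transporter of many cells and is abundant in red blood cells. It was at 161 and 165 FPKM in heart, 279.9 and 287 in liver, 38.6, 43.3, 43.4 and 34.3 in MEFs, and 19.4 and 43.0 in 2i-MEFs. Liver was above heart, and both were above all fibroblasts, whereas the fibroblast sources overlapped. MEFs were lower than liver by a log2 fold change of -2.80 ± 0.25 (SE, limma adjusted p = 1.2e-05) and lower than heart by -2.01 ± 0.25 (adjusted p = 0.000171). The difference of heart from liver, -0.79 ± 0.29 (adjusted p = 0.0441), did not reach 2-fold. The summed level of the erythroid markers was also highest in liver and at most 4.83 FPKM in fibroblasts, although Hbb-y and Hba-x, embryonic globin genes of this list, were higher in heart than in liver. The part of erythroid cells in the levels of Slc2a1 was not tested.

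The other glucose transporters were at lower FPKM. Slc2a2, the transporter of hepatocytes, was at 21.6 and 28.4 FPKM in liver and at most 0.0364 FPKM in any other library. Slc2a4, the insulin-regulated transporter of muscle and fat, was at 17.7 and 19.8 FPKM in heart, 9.22 to 10.5 in liver and 0.856 to 1.86 in MEFs, and it was called lower in MEFs than in heart (log2 fold change -3.09 ± 0.27, limma adjusted p = 2.12e-05). Slc2a3, the high-affinity form, was at 28.6 and 30.3 FPKM in liver and 11.01 FPKM in MEFs labelled Dnmt3a KO with GSK126, where Slc2a1 was at 34.3. All 3 genes were below Slc2a1 in every library, compared per length as FPKM.

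Hexokinase was mostly Hk1 in all libraries. Hk1 (ENSMUSG00000037012.18, chr10:62268855-62379908, minus strand), the form of most tissues, was at 260.4 and 261 FPKM in heart, 185 and 173 in liver, 50.02, 50.8, 35.9 and 45.1 in MEFs, and 32.7 and 40.2 in 2i-MEFs. The order was heart, liver and then the fibroblasts, with overlap only between MEFs and 2i-MEFs. The difference was called for MEFs against heart (log2 fold change -2.51 ± 0.15, limma adjusted p = 1.67e-06) and MEFs against liver (-1.96 ± 0.15, adjusted p = 3.61e-06), and was under 2-fold for heart against liver (0.54 ± 0.17, adjusted p = 0.0221).

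Hk2 (ENSMUSG00000000628.10, chr6:82725025-82774454, minus strand), the regulated form of muscle and of many growing cells, was at 15.4 and 12.7 FPKM in heart, 6.56 and 4.52 in liver, 3.69, 5.49, 3.84 and 3.93 in MEFs, and 8.27 and 9.59 in 2i-MEFs. Both 2i-MEF libraries lay above all MEFs and both livers, while liver and MEFs overlapped. Hk2 was called higher in heart than in liver (log2 fold change 1.21 ± 0.22, limma adjusted p = 0.00162), but not without the liver labelled Dnmt3a KO, where the fold fell just under 2 (0.98). Its difference of 2i-MEFs from MEFs was 0.93 ± 0.19 (adjusted p = 0.0104), a 1.91-fold change that was not called. It passed the 2-fold threshold with a pseudocount of 0.1 (1.07), without the WT MEFs with GSK126 (1.04) and without the Dnmt3a KO 2i-MEFs (1.03).

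As a share of the summed FPKM of both genes, Hk2 made up 20.2% and 19.3% in 2i-MEFs, between 6.87% and 9.75% in MEFs, 4.62% to 5.57% in heart and 2.54% to 3.43% in liver. The 4 sources did not overlap in this share, but heart and MEFs did once Hk3 and Hkdc1 were counted in the sum (5.54% in WT heart and 5.45% in WT MEFs with DMSO). Hk3 and Hkdc1 were below Hk1 in FPKM. Hk3, a form of blood cells, was at 14.0, 12, 10.5 and 8.10 FPKM in MEFs and at 0.136 and 0.0809 in 2i-MEFs, and was called lower in 2i-MEFs (log2 fold change -3.43 ± 0.23, limma adjusted p = 2.66e-05). The macrophage markers moved in the same way, all 6 reaching 1 FPKM in MEFs and 2 to 3 of them in 2i-MEFs, and their part in this result was not tested.

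**Figure D3:**
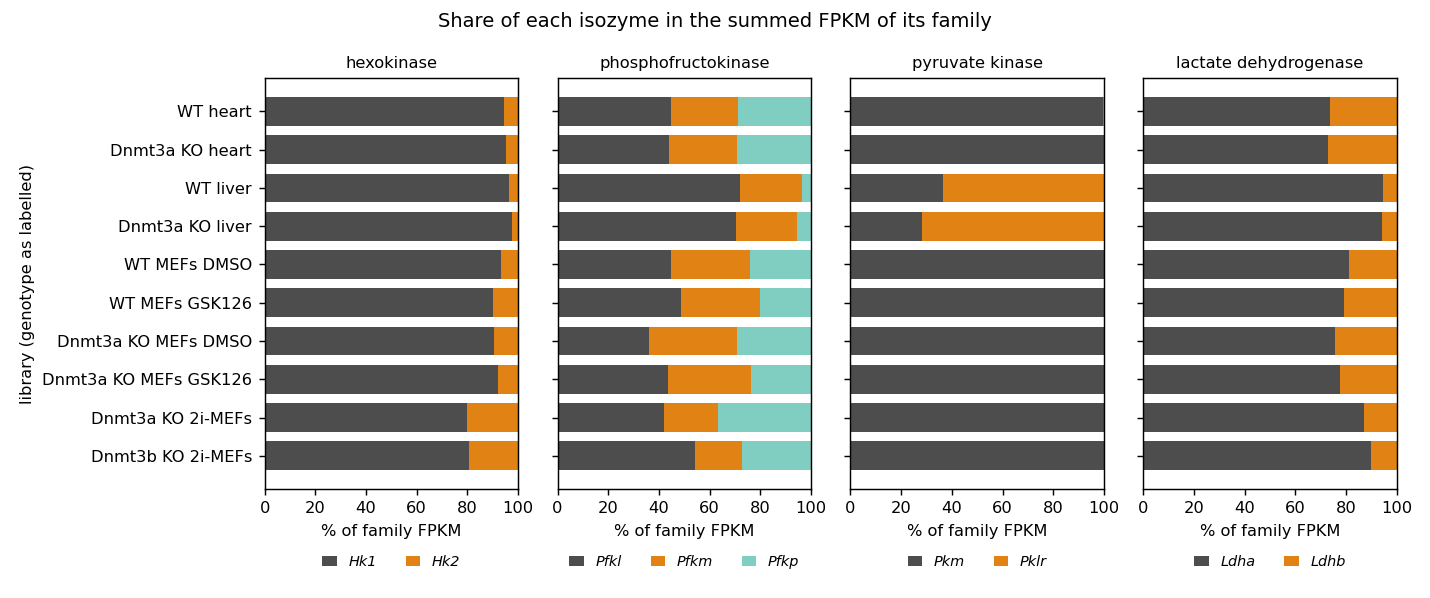
Share of each isozyme, in percent, of the summed FPKM of its family in each library (1 stacked bar a library). Pklr has a visible share in liver only, Pfkp is smallest in liver, Hk2 is largest in 2i-MEFs (20.2% and 19.3%), and Ldhb is largest in heart (26.2% and 27.0%).

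Phosphofructokinase separated liver from the other sources by its composition. Pfkl (ENSMUSG00000020277.10, chr10:77986947-78010083, minus strand), the liver form, was at 216 and 214 FPKM in heart, 129 and 109 in liver, 37.4, 36.5, 24.8 and 32.1 in MEFs, and 41.7 and 63.0 in 2i-MEFs. Its level was thus highest in heart, without overlap between any of the sources. MEFs were called lower than heart (log2 fold change -2.70 ± 0.20, limma adjusted p = 6.84e-06) and lower than liver (-1.84 ± 0.20, adjusted p = 3.8e-05). Heart was 1.81-fold higher than liver (0.85 ± 0.23, adjusted p = 0.0114) and 2i-MEFs were 1.57-fold higher than MEFs (0.65 ± 0.20, adjusted p = 0.0449), both under 2-fold.

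Pfkm (ENSMUSG00000033065.13, chr15:98092589-98132447, plus strand), the muscle form, was at 126 and 131 FPKM in heart, 43.8 and 37.0 in liver, 25.9, 23.4, 23.5 and 24.0 in MEFs, and 21.3 and 22.0 in 2i-MEFs. It varied little among the 6 fibroblast libraries. Heart was called higher than liver (log2 fold change 1.65 ± 0.11, limma adjusted p = 3.26e-06), and MEFs were called lower than heart (-2.37 ± 0.09, adjusted p = 1.73e-07). The difference of MEFs from liver was under 2-fold (-0.71 ± 0.09, adjusted p = 0.000149), and that of 2i-MEFs from MEFs did not pass (-0.15 ± 0.09, adjusted p = 0.274).

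Pfkp (ENSMUSG00000021196.14, chr13:6579768-6648777, minus strand), the platelet form, had the widest range of the 3 genes as a fold between its lowest and highest library. It was at 139 and 142 FPKM in heart, 6.54 and 8.35 in liver, 20.01, 15.2, 20.02 and 17.3 in MEFs, and 36.3 and 31.6 in 2i-MEFs. No sources overlapped, and the order was heart, 2i-MEFs, MEFs and liver. Heart was called 16.9-fold higher than liver (log2 fold change 4.08 ± 0.16, limma adjusted p = 1.64e-07), and MEFs were called higher than liver (1.18 ± 0.14, adjusted p = 7.87e-05) and lower than heart (-2.90 ± 0.14, adjusted p = 6.17e-07). In 2i-MEFs it was 1.83-fold higher than in MEFs (0.87 ± 0.14, adjusted p = 0.00326), which is under 2-fold. Megakaryocyte markers, which accompany platelets, were highest in liver (527 to 589 FPKM in sum), where Pfkp was lowest. The part of such cells in the levels of Pfkp was not tested.

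In liver, Pfkl made up 70.6% to 71.9% of the summed phosphofructokinase FPKM and Pfkp 3.65% to 5.41%. In heart these shares were 43.9% to 44.8% and 28.9% to 29.2%, with the rest from Pfkm. MEFs were nearer to heart, with 36.3% to 48.6% Pfkl, 31.1% to 34.4% Pfkm and 20.3% to 29.3% Pfkp. In 2i-MEFs the Pfkm share was lower, 18.9% to 21.5%, without overlap with MEFs. The Pfkl shares of heart, MEFs and 2i-MEFs overlapped.

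Pyruvate kinase divided liver from the other sources. Pkm (ENSMUSG00000032294.17, chr9:59656368-59679375, plus strand), which encodes the muscle and embryonic forms, was at 1589.5 and 1473 FPKM in heart, 302 and 224 in liver, 807, 710.3, 505 and 601 in MEFs, and 447 and 651 in 2i-MEFs. It was lowest in liver, and the fibroblast sources overlapped. Heart was called higher than liver (log2 fold change 2.55 ± 0.25, limma adjusted p = 3.64e-05), and MEFs were called higher than liver (1.31 ± 0.22, adjusted p = 0.000593) and lower than heart (-1.24 ± 0.22, adjusted p = 0.00118). The difference of 2i-MEFs from MEFs did not pass (-0.26 ± 0.22, adjusted p = 0.423).

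Pklr (ENSMUSG00000041237.12, chr3:89136142-89146784, plus strand), the liver and red blood cell gene whose start regions are shown above, was at 525 and 567 FPKM in liver, 3.00 in WT heart and 0.230 in Dnmt3a KO heart, and was listed at 0 in all 6 fibroblast libraries. It was called lower in heart than in liver (log2 fold change -7.94 ± 0.43, limma adjusted p = 9.55e-07) and lower in MEFs than in liver (adjusted p = 1.05e-07), for which no fold is given because MEFs were listed at 0. At the depth of these fibroblast libraries, a count of 3 reads on the longest transcript would amount to between 0.0434 and 0.121 FPKM. The call for MEFs against heart (adjusted p = 0.0277) rested on WT heart and was lost without it (adjusted p = 0.163). It was also lost with no low-value filter (adjusted p = 0.145), with averaged treatments (0.0914) and with genotype and treatment terms (0.0966). In liver, Pklr made up 63.4% and 71.6% of the summed pyruvate kinase FPKM, against at most 0.189% in heart.

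The summed pyruvate kinase level differed less than its parts, at 827 and 791 FPKM in liver, 1593 and 1474 in heart, 505 to 807 in MEFs and 447 to 651 in 2i-MEFs. Both cell types that are known to use Pklr were represented in liver, where the hepatocyte markers summed to 27815 FPKM (WT) and 18231 FPKM (labelled Dnmt3a KO) and the erythroid markers to 123894 and 165446 FPKM. Heart held erythroid markers as well, at 61097.9 (WT) and 53986.5 FPKM (labelled Dnmt3a KO) in sum. Of these, the nuclear factor gene Klf1 was lower in heart than in liver (1.71 to 3.33 against 469 to 479.8 FPKM). The globin genes Hbb-y and Hba-x were higher in heart than in liver. The part of either cell type in the levels of Pklr was not tested.

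Of the lactate dehydrogenase genes, Ldhb differed more than Ldha between heart and the other sources. Ldha (ENSMUSG00000063229.15, chr7:46841475-46855627, plus strand), which encodes the M subunit, was at 1896 and 1929.5 FPKM in heart, 952 and 869 in liver, 493, 455, 364 and 406 in MEFs, and 415 and 528 in 2i-MEFs. The order was heart, liver and then the fibroblasts, which overlapped. Heart was called higher than liver (log2 fold change 1.07 ± 0.16, limma adjusted p = 0.00044), and MEFs were called lower than heart (-2.16 ± 0.14, adjusted p = 2.81e-06) and lower than liver (-1.09 ± 0.14, adjusted p = 0.000103). Without the 3 libraries in which Dnmt3a went against the label, the last difference was under 2-fold (-0.94, adjusted p = 0.00277).

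Ldhb (ENSMUSG00000030246.11, chr6:142490249-142507957, minus strand), which encodes the H subunit typical of heart, was at 674 and 715 FPKM in heart, 55.4 and 52.8 in liver, 114, 119.5, 118 and 118 in MEFs, and 61.7 and 59.3 in 2i-MEFs. The 4 MEF libraries lay within 6 FPKM of each other. No sources overlapped, although 2i-MEFs and liver were close to each other. Heart was called 12.6-fold higher than liver (log2 fold change 3.66 ± 0.08, limma adjusted p = 1.39e-08). MEFs were called higher than liver (1.10 ± 0.07, adjusted p = 1.14e-06) and lower than heart (-2.55 ± 0.07, adjusted p = 1.73e-08). In 2i-MEFs it was 1.93-fold lower than in MEFs (-0.95 ± 0.07, adjusted p = 3.68e-05), which was not called, and it reached 2-fold with median-of-ratios scaling (-1.002).

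The 2 lactate dehydrogenase genes therefore moved unequally. Ldhb made up 26.2% and 27.0% of their summed FPKM in heart, 18.8% to 24.6% in MEFs, 10.1% to 12.9% in 2i-MEFs and 5.50% to 5.72% in liver. Expressed as a ratio, there were 2.70 to 2.81 FPKM of Ldha for 1 of Ldhb in heart and 16.5 to 17.2 in liver. The ratio was 3.07 to 4.32 in MEFs and 6.72 to 8.91 in 2i-MEFs, so that none of the sources overlapped. Ldha has near-identical processed pseudogenes, and reads that match a copy equally well were left out by the filter for unique mapping, so its level relative to Ldhb is uncertain.

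The other genes of the pathway were taken from a list of 49 genes, all in the table, of which 44 passed the low-value filter. In heart against liver, 18 of the 44 were called higher and 9 lower, beside the 18.8% and 17.1% of all genes, with a median log2 fold change of 0.69. All 7 genes of the shared lower steps (glyceraldehyde phosphate to phosphoenolpyruvate) were called higher in heart. Among the genes called higher, the largest differences were at the muscle forms Pgam2, a phosphoglycerate mutase, and Eno3, an enolase. Pgam2 was at 938 and 893 FPKM in heart and 5.73 and 2.19 in liver (7.63 ± 0.34, limma adjusted p = 2.85e-07), and Eno3 was at 547 and 563 in heart and 10.2 and 11.7 in liver (5.55 ± 0.33, adjusted p = 1.58e-06). Pdk2, a kinase that inhibits pyruvate dehydrogenase, was also called higher in heart (3.12 ± 0.18, adjusted p = 1.55e-06). Among the genes called lower in heart was Slc2a2 (-4.66 ± 0.15, adjusted p = 5.59e-08). Gckr, which encodes a regulator of glucose metabolism in liver, was at 8.19 and 6.63 FPKM in liver and listed at 0 in both hearts.

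In MEFs, 17 of the 44 genes were called lower than in heart and 5 higher, beside 14.51% and 15.7% of all genes, with a median of -0.75. Of the shared steps, 3 of 5 upper and 6 of 7 lower genes were called lower. Pgam2 (-7.51 ± 0.29, limma adjusted p = 1.5e-07) and Eno3 (-5.29 ± 0.28, adjusted p = 1.01e-06) again had the largest differences. Next came Slc16a3, the lactate exporter MCT4, which was at 193 and 177 FPKM in heart and 5.89, 8.17, 3.30 and 2.46 in MEFs (-5.07 ± 0.40, adjusted p = 1e-05). The triose phosphate isomerase gene Tpi1 was also called lower (-2.77 ± 0.17, adjusted p = 2.28e-06), whereas Hk3 was called higher (2.68 ± 0.23, adjusted p = 1.82e-05).

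Compared with liver, 4 of the 44 genes were called higher in MEFs and 16 lower, beside 22.5% and 20.4% of all genes, with a median of -0.12. Of the 7 genes of the shared lower steps, only the neuronal enolase Eno2 was called, at 15.9 to 26.4 FPKM in MEFs and 0.284 and 0.0901 in liver (4.18 ± 0.28, limma adjusted p = 1.79e-06). The genes called lower included Slc2a2 (-4.67 ± 0.13, adjusted p = 1.28e-08), Slc16a3 (-3.47 ± 0.40, adjusted p = 5.71e-05) and the hexokinase gene Hkdc1 (-3.13 ± 0.13, adjusted p = 9.89e-08). Gckr was called lower as well (-3.02 ± 0.12, adjusted p = 7.46e-08). All 3 other glucose transporter genes were called lower in MEFs.

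Between 2i-MEFs and MEFs, 2 of the 44 genes were called higher and 2 lower, which is near the 3.9% and 5.41% of all genes, and the shared steps held none of them. Slc16a3 was at 20.9 and 43.1 FPKM in 2i-MEFs, above the 2.46 to 8.17 FPKM of MEFs (2.49 ± 0.40, limma adjusted p = 0.00294). Txnip, which encodes a glucose-responsive inhibitor of glucose uptake, was at 185 and 212 FPKM in 2i-MEFs and 37.8 to 102 in MEFs (1.68 ± 0.35, adjusted p = 0.00988), where it was lower with GSK126 than with DMSO (log2 ratios of -0.76 in WT and -1.41 under the Dnmt3a KO label). Besides Hk3, Pcx was called lower, the pyruvate carboxylase gene, at 9.88 and 7.45 FPKM in 2i-MEFs and 16.4 to 24.9 in MEFs (-1.14 ± 0.17, adjusted p = 0.00214).

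**Figure D4:**
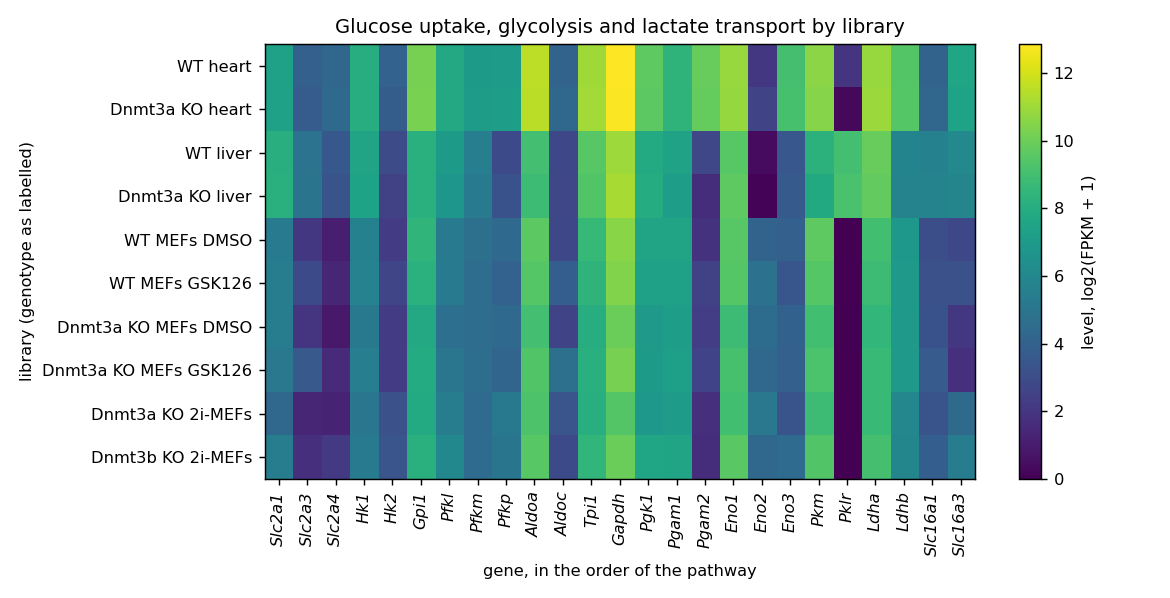
Level of 25 genes from glucose uptake to lactate transport (columns, in pathway order) in the 10 libraries (rows), as log2(FPKM + 1) on the colour scale. Pgam2, Eno3 and Slc16a3 are brightest in the heart rows, and Pklr in the liver rows.

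Genotype labels and treatments were compared with 1 library on each side, so these differences have no replicate check and no p-value. A change of at least 2-fold in FPKM + 1 was counted among genes with at least 1 FPKM in either library. Of the 10 genes, 1 changed by this much between Dnmt3a KO and Dnmt3b KO 2i-MEFs, beside 9.01% of all genes, which is near the share of the 10, and 1 between the hearts, beside 4.04%. None did so between the livers (3.68% of all genes), between MEFs labelled Dnmt3a KO and WT with DMSO (6.26%) or with GSK126 (5.83%), or between GSK126 and DMSO in MEFs labelled WT (3.76%) or Dnmt3a KO (5.26%).

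The gene that differed in 2i-MEFs was Slc2a1, with 19.4 FPKM in Dnmt3a KO and 43.0 in Dnmt3b KO, a log2 ratio of -1.11. These values stand for about 649 and 1205 reads on the longest transcript. In the same pair, 2 pathway genes were also at least 2-fold lower in Dnmt3a KO, Eno3 (9.26 against 21.4 FPKM) and Slc16a3 (20.9 against 43.1 FPKM). Of the 9 genes not listed at 0, 7 had a ratio below 0, with a median of -0.29 against 0.03 over all genes, and Ldhb (0.06) and Pfkp (0.20) were above 0. Of the 8 skeletal muscle markers, 5 were lower in Dnmt3a KO and 1 was higher, with sums of 9.91 against 23.5 FPKM. Their part in the Eno3 difference was not tested.

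The gene that differed between the hearts was Pklr, lower in the heart labelled Dnmt3a KO by a log2 ratio of -1.70 (0.230 against 3.00 FPKM, about 10 against 154 reads on the longest transcript). Of the 10 hepatocyte markers, 9 were lower in the heart labelled Dnmt3a KO: Alb was at 3.04 against 12.7 FPKM, Afp at 2.57 against 10.1 and Apoa1 at 0.777 against 7.08. The exception was Trf (58.5 against 30.1 FPKM), and the list summed to 71.3 FPKM in the heart labelled Dnmt3a KO and 84.9 in WT heart. Of the 11 erythroid markers, 9 were lower there, with sums of 53986.5 against 61097.9 FPKM and Klf1 at 1.71 against 3.33. The part of these cell types in the Pklr difference was not tested. The other 9 genes lay between -0.26 and 0.08 in the hearts.

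In the livers, the ratios ran from -0.45 (Hk2) to 0.31 (Pfkp). Pgam2 was the one pathway gene at least 2-fold lower in the liver labelled Dnmt3a KO, at 2.19 against 5.73 FPKM. All 8 skeletal muscle markers were lower there too, summing to 116 FPKM against 306 in WT liver. The same held for all 10 fibroblast markers (293 against 542 FPKM in sum), all 6 macrophage markers (137 against 209.7 FPKM) and all 3 megakaryocyte markers (527 against 589 FPKM), and the cardiomyocyte markers summed to 23.6 against 70.6 FPKM with 4 of 10 lower. The part of these cell types in the Pgam2 difference was not tested.

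In MEFs with DMSO, the lowest ratio of the library labelled Dnmt3a KO to WT was that of Pkm (-0.68, 505 against 807 FPKM), followed by Pfkl (-0.57), and the highest was that of Slc2a1 (0.16). With GSK126 the range was -0.40 (Hk2) to 0.17 (Pfkp). Pdk1, an inhibitor of pyruvate dehydrogenase, differed at least 2-fold with DMSO, being lower under the Dnmt3a KO label (6.29 against 14.6 FPKM), and with GSK126 its ratio was just under 2-fold (-0.94, 7.85 against 15.97 FPKM). Slc16a3 was at least 2-fold lower under this label with GSK126 (2.46 against 8.17 FPKM). All 6 macrophage markers were lower under this label, summing to 1128 against 1337 FPKM with DMSO and 990 against 1387 with GSK126. Of the 10 fibroblast markers, 7 were lower with DMSO and 9 with GSK126. The part of these cell types in the differences was not tested.

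GSK126 against DMSO gave ratios of -0.37 (Pfkp) to 0.47 (Hk2) in WT MEFs and -0.33 (Slc2a1) to 0.36 (Pfkl) in MEFs labelled Dnmt3a KO. Outside the 10 genes, Aldoc, the brain aldolase, was higher with GSK126 in both, at 13.4 against 5.91 FPKM in WT and 25.9 against 5.31 in the MEFs labelled Dnmt3a KO. Pdk4, another inhibitor of pyruvate dehydrogenase, was lower with GSK126 in WT MEFs (3.27 against 10.8 FPKM). In those labelled Dnmt3a KO, Slc2a3, a high-affinity glucose transporter, was higher (11.01 against 3.01 FPKM) and Txnip was lower (37.8 against 102 FPKM). These 4 comparisons of MEFs share libraries.

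**Figure D5:**
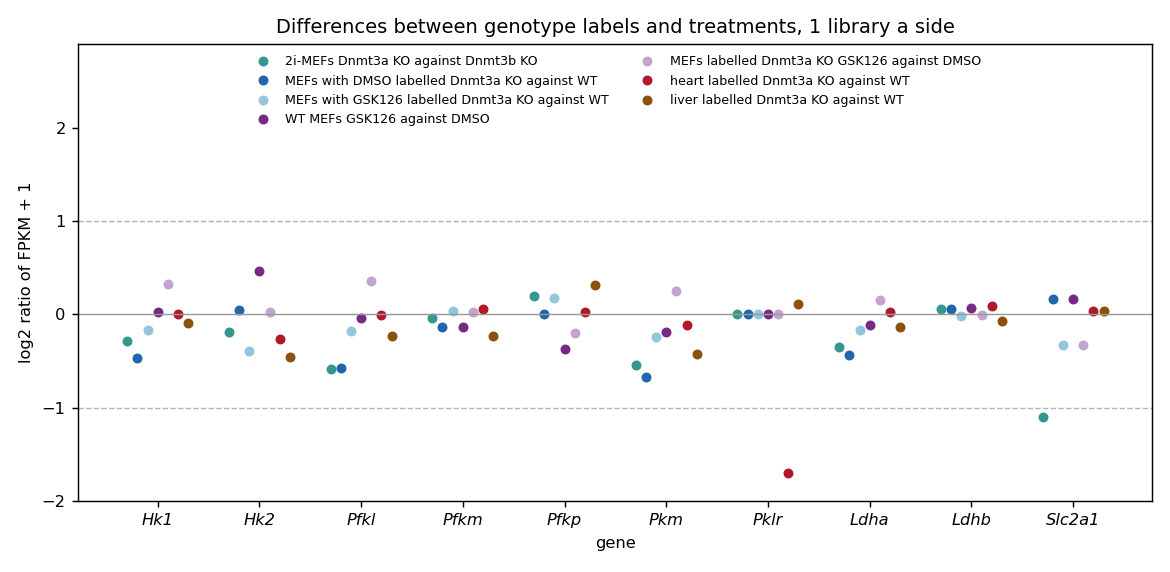
Log2 ratio of FPKM + 1 for each of the 10 genes in the 7 comparisons of single libraries (colours), with dashed lines at a 2-fold change. Only Slc2a1 in 2i-MEFs (-1.11) and Pklr in heart (-1.70) lie beyond the lines.

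The genes whose pattern over the 10 libraries was most like that of each of the 10 genes were found by the root mean square difference of log2(FPKM + 1) after centring each gene on its mean, among the 15643 genes. Pklr was closest to Apom, which encodes an apolipoprotein made in liver, with a difference of 0.0831. Apom was at 2.86 FPKM in WT heart, 0.239 in the heart labelled Dnmt3a KO, and 599 and 629 in liver. Serpinf2, an inhibitor of plasmin made in liver, came next (0.13) and was likewise higher in WT heart (2.29 FPKM) than in the other (0.215 FPKM).

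Pfkm was closest to Sdhb, a subunit of succinate dehydrogenase (0.102). Ldha was closest to Ndufa12 of respiratory complex I (0.121) and Atp5c1 of the ATP synthase (0.13), and Hk1 to Atp5g1 of the ATP synthase (0.199) and Mfng (0.223). Pfkl was closest to the cytokine gene Mif (0.193) and Idh3a, a subunit of isocitrate dehydrogenase (0.223).

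The closest genes of the others were Trak1 (0.19) and Tns1 (0.213) for Pkm, 5430405H02Rik (0.213) and B230118H07Rik (0.229) for Hk2, and Nfatc2 (0.226) and Spon2 (0.259) for Ldhb. For Slc2a1 they were 2500002B13Rik (0.261) and Slc22a23 (0.31), and for Pfkp Stk39 (0.325) and Cobl (0.337). All points of such a comparison come from the same 10 libraries, and the likeness is a description of their levels.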

How the data were processed

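RNA-seq libraries (stranded mRNA, single reads of 75 bases) were analysed for 10 of the 26 samples of the series; the 16 DNA methylation samples were not used here. Per the study's methods and the submitters' processing notes, the authors removed adapters with cutadapt and aligned the reads to mm10 using tophat, Bowtie2 and the GENCODE M15 annotation. Unique alignments with a MAPQ of 20 or more entered Cufflinks 2.2.1, which gave the FPKM values. The authors deposited these FPKM values as 1 table of 52609 gene rows, without counts. Rows of the same symbol (155 repeats) were summed. Depth was estimated from genes with a single transcript of 1500 bases or more, where low FPKM values rise in steps of 1 read: between 97.7% and 99.0% of values under 10 reads lay within 0.1 of a whole number. Such numbers cover counting error only. Exact zeros can be failed estimates: 2 genes were at 0 in 1 library and at 50 FPKM or more in the other 9.

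Sources were compared with limma 3.58.1 (R 4.3.3; variance trend, source as the only term, all 10 libraries) on log2(FPKM + 1), so that fold changes of low genes are understated. The fit was checked on simulated data. Isozyme shares and ratios of single libraries were calculated with Python 3.11.15 and have no test. The number 4 in the labels of WT heart and WT liver and 25 in those of both KO tissues allowed a fit with this number as a block. Alternatives were a pseudocount of 0.1, median-of-ratios scaling, no low-value filter, no variance trend, the highest row per symbol, averaged treatments, genotype and treatment terms, no fold threshold, a 1.5-fold threshold, centred ratios, shares with further family genes and each library left out. The choice of further family genes (Hk3, Hkdc1 and Ldhc), leaving out the 3 libraries in which Dnmt3a went against the label, and the count of pathway genes with no fold threshold, were added after seeing the data.

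Levels of all 10 genes are given for every library, but not every comparison gives a fold change for each of them. Of the pathway list, the 6 called genes with the largest change are named in each comparison of sources, and every gene changed 2-fold in those of single libraries; Slc2a2 and Slc2a4 levels across all sources, and the closing section's genes, were picked with their values in view. The 2 most alike genes are named for each of the 10. A few genes that these rules would name are not reported here. The genes and lists were chosen with earlier results of these data known. RefSeq start regions were available for all 10 genes (17 starts).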

Additional observations from a re-analysis of the deposited data

Results flagged for a closer look

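Among the 4 MEF libraries, Hk2 was at 5.49 FPKM in the WT library with GSK126 and between 3.69 and 3.93 FPKM in the other 3. On the log2(FPKM + 1) scale, the gap to the nearest library was 0.845 of the whole range, above the critical value of Dixon's test for 4 samples. Hk2 was the one with such a library among the 9 genes screened in this way in MEFs (Pklr was listed at 0), and chance gives such a library in about 1 in 20 genes, so 1 among 9 is not unusual. Without this library, the log2 fold change of Hk2 between 2i-MEFs and MEFs was 1.04 (limma adjusted p = 0.00795) in place of 0.93.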

How the results depend on the processing

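No fold change of the 10 genes that was called, at first or under an alternative, reversed its direction. Fold changes called in neither were not checked for direction. Of the fold changes of the 10 genes, 520 of 530 values kept their side of the threshold. Of the others, 6 lost the call: Hk2 for heart against liver without the liver labelled Dnmt3a KO, Ldha for MEFs against liver without the 3 libraries whose Dnmt3a level went against the label, and Pklr for MEFs against heart without WT heart (-0.30), with no low-value filter (adjusted p = 0.145), with averaged treatments (0.0914) and with genotype and treatment terms (0.0966). The remaining 4 gained it, all between 2i-MEFs and MEFs. The count of the 10 genes called there, 0 at first, was 1 with a pseudocount of 0.1 (Hk2), 1 with median-of-ratios scaling (Ldhb), 4 with no fold threshold, and 0 to 1 with a library left out (Hk2 without WT MEFs with GSK126 or without Dnmt3a KO 2i-MEFs). With no fold threshold, the count of pathway genes rose to 31 for MEFs against liver and 9 for 2i-MEFs against MEFs, since that alternative drops a criterion. At 1.5-fold, 1 gene (Pkm) changed between the MEFs with DMSO in place of 0. With Hk3 and Hkdc1 added to the family, Hk1 made up 90.4% in liver and 74.6% in MEFs of the summed FPKM of these genes, and Hk2 6.99% in MEFs, where its share then overlapped with that of heart. With the label number as a replicate block in heart and liver, 7 of the 10 genes were called, as without it.

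Each condition has 1 library, and the libraries of a source differ in genotype label or treatment. The 2i-MEFs were sequenced least, at 10903615 and 9151285 mapped reads, so that low values are least precise there.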

Other observations

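Among the regulators, Hif1a, which encodes the oxygen-regulated subunit of the hypoxia-inducible factor, was at 57.2 to 60.3 FPKM in heart, 12.2 to 13.1 in liver, 43.2 to 46.1 in MEFs and 65.3 to 72.8 in 2i-MEFs. It was called higher in heart than in liver (log2 fold change 2.13 ± 0.10, limma adjusted p = 3.79e-07) and higher in MEFs than in liver (1.72 ± 0.09, adjusted p = 3.25e-07). Myc, a growth regulator, had the opposite order between the tissues, with 64.5 to 72.6 FPKM in liver and 11.5 to 14.2 in heart. Of the 6 genes of pyruvate dehydrogenase and its kinases, 3 were called higher in heart than in liver and none lower: the subunit gene Pdhb, and Pdk2 and Pdk4, kinases that inhibit the enzyme. Over all genes tested, 18.8% were called higher.

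Of the 7 genes of gluconeogenesis, 3 passed the low-value filter (G6pc3, Pck2 and Pcx). Pck1 was at most 0.201 FPKM, Fbp1 at most 0.507 FPKM and G6pc at most 0.0172 FPKM in any library, livers included, where Pcx was at 46.4 and 52.8 FPKM.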
